A study of Drosophila melanogaster with 3 samples.

Results

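The sperm leucyl aminopeptidases are a small gene family of Drosophila melanogaster whose names start with S-Lap. The deposited tables held 7 of them among 16509 genes, namely S-Lap1, S-Lap2, S-Lap3, S-Lap4, S-Lap5, S-Lap7 and S-Lap8. They were found by their symbols, but the family itself was chosen by its counts in the same 3 libraries, which had been seen to be low in one of them. All differences between libraries below are therefore a description of these libraries and are not a test.

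Leucyl aminopeptidases are metalloenzymes that remove single amino acids from the start of a protein or peptide. In the fruit fly a set of duplicated copies is made in the male germ line, and their products are among the most abundant proteins of the mature sperm, where they are packed into the mitochondrial derivatives that run along the tail. Several of the copies have lost residues that the active enzyme needs, so the family is known as a structural component of sperm as much as a group of peptidases. As in most genes of sperm, their transcription starts in spermatocytes, which the testis of a male larva already holds. In the larva, the gonads lie embedded in the fat body.

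The study asked how the kinase Hippo (Hpo) in the fat body, the fly organ of fat storage, shapes gene expression. RNA was measured in 3 libraries, 1 per genotype. Dcg/+ flies, the control, carried the Dcg-Gal4 driver alone, which was used to direct expression to the fat body and which all 3 genotypes share. Dcg > Hpo flies overexpressed Hpo from this driver, and Dcg > Hpo-RNAi flies carried an interfering RNA against it. The study's methods describe pooled larval fat bodies, and its figures place them at the third instar, while the extraction protocol in the labels names 30 adult heads. The sex of the animals was not given in the sources used here. Since no genotype has a replicate library, the intervals below are exact 95% intervals of counting error only, and variation between animals or dissections was not measured.

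The control library (Dcg/+) held 21918672 counts, the overexpression library (Dcg > Hpo) 23227940 and the knockdown library (Dcg > Hpo-RNAi) 23524682. The hpo gene, which checks the labels, had 289 counts in the control, 11568 under overexpression and 182 under knockdown. As a ratio of library shares it was 37.8-fold higher in Dcg > Hpo than in the control (95% interval 33.6 to 42.6) and at 0.587 of the control under knockdown (0.485 to 0.709). The 9 larval fat body markers took 18.8%, 19.4% and 18.4% of the counts of Dcg/+, Dcg > Hpo and Dcg > Hpo-RNAi, and the most abundant of them, the larval serum protein gene Lsp1beta, had 1612401 counts in the control, 1895967 under overexpression and 2063983 under knockdown. The tissue label thus has its defining markers in every library, next to markers of other tissues that are described further below.

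All 7 S-Lap genes had very few reads in the library that overexpressed Hpo. Together they had 12997 counts in the control, 204 under overexpression and 16006 under knockdown. These sums were 0.0593%, 0.000878% and 0.0680% of all counts. The summed share under overexpression was 0.0148 of that in the control (0.0128 to 0.0170), or 67.5-fold lower. In the knockdown library the family was near the control, at a ratio of 1.15 (1.12 to 1.17), and the summed share was 77.5-fold higher in Dcg > Hpo-RNAi than under overexpression (67.5 to 89.4).

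A gene was called lower or higher when its ratio of library shares was at most 0.5 or at least 2, with an interval that left out 1, provided that 1 of the libraries compared had at least 10 counts. By this rule 7 of 7 members were called lower in Dcg > Hpo than in the control, and 0 were called higher. Of all 11834 genes measured in this comparison, 22.8% were called lower and 18.2% higher. The median log2 ratio was -6.52 over the members and 0.09 over all genes measured. Because the members were chosen with this contrast in view, nothing is read from their count. In Dcg > Hpo-RNAi against Dcg/+, 0 of 7 members were called in either direction, where 9.09% of 11521 genes were lower by this rule and 7.81% were higher. Between Dcg > Hpo-RNAi and Dcg > Hpo, 7 of 7 members were called higher, where 24.3% of 11906 genes were. The comparisons share libraries, so the last one repeats values of the first.

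**Figure D1:**
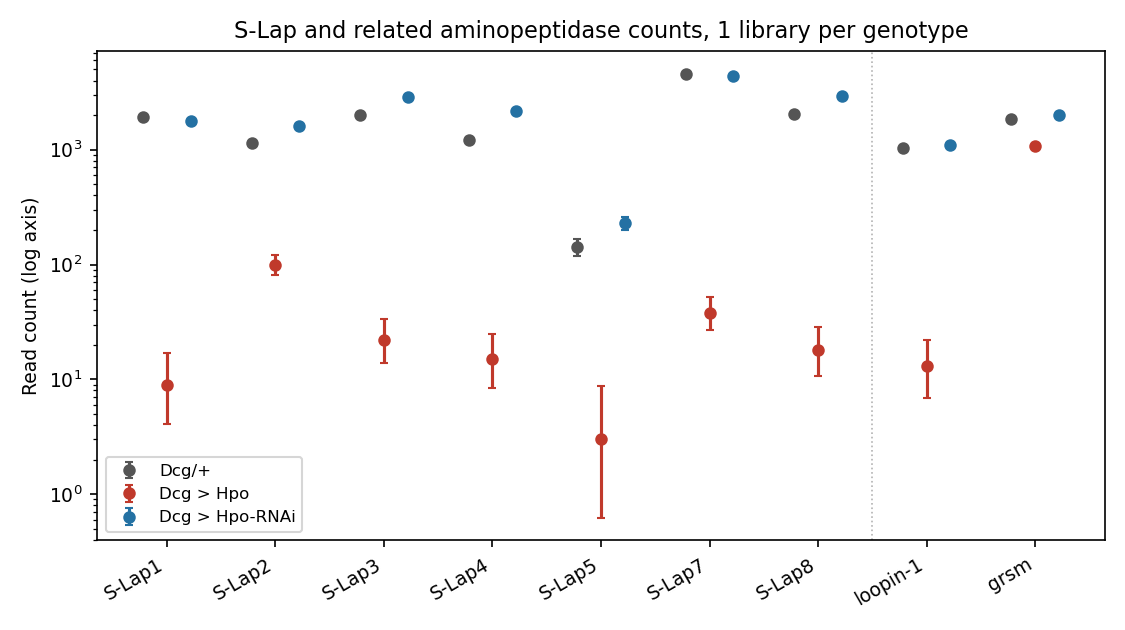
Read counts of the 7 S-Lap genes and of the related aminopeptidase genes loopin-1 and grsm (right of the dotted line) in the 3 libraries, on a log axis, with exact Poisson 95% intervals of each count. Every S-Lap gene has between 3 and 99 counts in Dcg > Hpo and between 141 and 4520 in Dcg/+, whereas grsm has 1082 and 1849.

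S-Lap7 was the most abundant member in the control. It had 4520 counts in the control, 38 under overexpression and 4423 under knockdown. Its share under overexpression was 0.00793 of the control (0.00561 to 0.0109). By count it ranked 377th of 16509 genes in the control and 439th under knockdown, but 8100th under overexpression. The gene lies on chromosome arm 2R of the dm6 assembly (13778124 to 13780245, minus strand), has a single exon and encodes 527 amino acids. It sits within an intron of Cpr50Ca, a cuticle protein gene on the opposite strand, which had 0 counts in every library.

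S-Lap8 had 2066 counts in the control, 18 under overexpression and 2942 under knockdown. It was at 0.00822 of the control under overexpression (0.00486 to 0.0130), close to the ratio of S-Lap7 and with an overlapping interval. S-Lap8 has 2 exons, lies on 2R (16491100 to 16493233, plus strand) and encodes 534 amino acids.

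S-Lap1 had the lowest ratio of the family. Its counts were 1911 in the control, 9 under overexpression and 1774 under knockdown. The share under overexpression was 225-fold lower than in the control, at a ratio of 0.00444 (0.00203 to 0.00845). The gene has 3 exons on arm 3L (8617235 to 8619474, plus strand) and encodes 555 amino acids.

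S-Lap2 is the next gene on the same strand, 413 bases after S-Lap1, and it kept the largest part of its control reads. It had 1155 counts in the control, 99 under overexpression and 1599 under knockdown. Its ratio of 0.0809 (0.0652 to 0.0994) was 12.4-fold below the control, yet 4.03 times the next highest ratio of the family and 18.2 times that of its neighbour S-Lap1. The intervals of S-Lap2 and S-Lap1 lie far apart. Within a library, S-Lap2 had 0.604 reads per read of S-Lap1 in the control (0.561 to 0.651), 11 under overexpression (5.57 to 24.8) and 0.901 under knockdown (0.842 to 0.965).

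The last 53 bases of S-Lap2 (3L, 8619888 to 8622091, plus strand, 3 exons, 552 amino acids) overlap the 3′ untranslated region of GAPsec, a gene for a regulator of Rab GTPases on the minus strand. The libraries were made from 3′ ends, and whether reads were counted by strand was not given in the sources used here, so reads of both genes may not be separable. GAPsec had 1006 counts in the control, 157 under overexpression and 1403 under knockdown, a ratio of 0.147 under overexpression (0.124 to 0.174). S-Lap2 had 1.15 reads per GAPsec read in the control, 0.631 under overexpression and 1.14 under knockdown. The part of GAPsec reads in the S-Lap2 count was not tested. Without S-Lap2 the summed family had 11842, 105 and 14407 counts in the control, Dcg > Hpo and Dcg > Hpo-RNAi, and its ratio under overexpression was 0.00837 (0.00684 to 0.0101).

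S-Lap3 and S-Lap4 form another pair of neighbours on 3L, 21886 bases apart. S-Lap3 had 1989 counts in the control, 22 under overexpression and 2880 under knockdown, and S-Lap4 had 1215, 15 and 2159. Here the neighbours were alike under overexpression, at 0.0104 of the control for S-Lap3 (0.00653 to 0.0158) and 0.0116 for S-Lap4 (0.00650 to 0.0193), with overlapping intervals. S-Lap3 (10465187 to 10468974, plus strand) has 3 annotated transcripts and encodes 535 amino acids. S-Lap4 (10490861 to 10492934, plus strand) has a single exon, encodes 524 amino acids and lies inside an intron of Rbfox1, a gene for an RNA-binding splicing factor that the tables list as A2bp1. This host gene, read from the same strand, had 1090 counts in the control, 1427 under overexpression and 1339 under knockdown, so a gene of low counts under overexpression stood within one at 1.24 of the control.

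S-Lap5 was the weakest member in all 3 libraries, with 141 counts in the control, 3 under overexpression and 229 under knockdown. Its ratio under overexpression was 0.0201, and the interval is wide (0.00409 to 0.0599) because it rests on 3 reads. It has a single exon on 2R (13596677 to 13598750, plus strand) and encodes 549 amino acids. The S-Lap copies come from duplication, and a read that matches more than one of them could have been counted for either. How such reads were treated was not given in the sources used here, so the split of counts among the members is less certain than their sum.

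**Figure D2:**
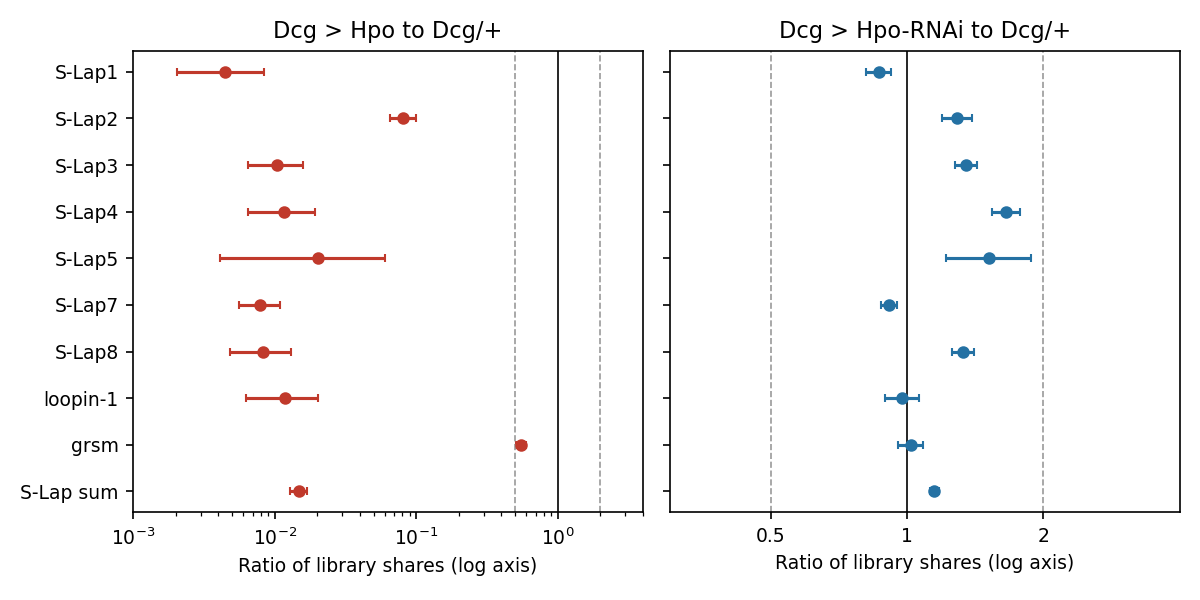
Ratios of library shares of Dcg > Hpo (left) and Dcg > Hpo-RNAi (right) to Dcg/+ for each S-Lap gene, loopin-1, grsm and the sum of the 7 S-Lap genes, on log axes that differ between the panels, with exact 95% intervals of counting error. The solid line marks 1 and the dashed lines 0.5 and 2. The S-Lap ratios lie between 0.00444 and 0.0809 on the left and between 0.865 and 1.66 on the right.

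Knockdown of Hpo was not accompanied by a uniform shift of the family. Of the 7 members, 5 had intervals wholly above 1 and 2 wholly below. S-Lap4 had the highest ratio to the control, 1.66 (1.54 to 1.78), followed by S-Lap5 at 1.51 (1.22 to 1.88). S-Lap3 stood at 1.35 (1.27 to 1.43), S-Lap8 at 1.33 (1.25 to 1.40) and S-Lap2 at 1.29 (1.20 to 1.39). S-Lap7, at 0.912 (0.875 to 0.951), and S-Lap1, at 0.865 (0.810 to 0.923), lay below the control. None reached 2-fold. The median log2 ratio of the members was 0.41 beside 0.08 over all genes measured. Without a replicate, it is not known whether differences of this size exceed those between 2 libraries of 1 genotype.

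The spread among members under knockdown does not depend on a scaling by 1 factor per library. S-Lap4 had 0.636 reads per read of S-Lap1 in the control (0.591 to 0.684) and 1.22 under knockdown (1.14 to 1.30). S-Lap7 had 2.19 reads per read of S-Lap8 in the control (2.08 to 2.31) and 1.503 under knockdown (1.43 to 1.58). Under overexpression that last ratio was 2.11 (1.18 to 3.93), an interval that overlaps the one in the control and includes the value under knockdown.

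The order of the members was nearly the same in the control and under knockdown. By CPM, a library share scaled to a fixed total, the control held 206.2 of S-Lap7, 94.3 of S-Lap8, 90.7 of S-Lap3, 87.2 of S-Lap1, 55.4 of S-Lap4, 52.7 of S-Lap2 and 6.43 of S-Lap5. Reads of 3′ ends do not scale with transcript length, so a level per kilobase lowers long transcripts such as S-Lap3, and it puts S-Lap1 above S-Lap3 in the control and S-Lap8 above S-Lap3 under overexpression. Per kilobase of the longest transcript, the level in the control was 97.2 CPM for S-Lap7, 45.9 for S-Lap8, 41.1 for S-Lap1, 34.4 for S-Lap3, 26.7 for S-Lap4, 25.2 for S-Lap2 and 3.10 for S-Lap5. In this order only S-Lap4 and S-Lap2 had overlapping intervals (25.2 to 28.3 and 23.7 to 26.7). That separation rests on the division by length. By count, the control intervals of S-Lap8 (1978 to 2157), S-Lap3 (1903 to 2078) and S-Lap1 (1826 to 1999) overlapped. Those of S-Lap4 (1148 to 1285) and S-Lap2 (1089 to 1224) did so too. Under knockdown the levels per kilobase were 88.6 for S-Lap7, 60.9 for S-Lap8, 46.4 for S-Lap3, 44.3 for S-Lap4, 35.6 for S-Lap1, 32.5 for S-Lap2 and 4.69 for S-Lap5. S-Lap3 and S-Lap4 overlapped in their intervals per kilobase there (44.7 to 48.1 and 42.4 to 46.2), whereas S-Lap1 and S-Lap2 did not (33.9 to 37.2 and 30.9 to 34.1). By count under knockdown, S-Lap3 (2776 to 2987) overlapped S-Lap8 (2837 to 3050) and not S-Lap4 (2069 to 2252). Under overexpression S-Lap2 led with 2.04 per kilobase, S-Lap7 followed with 0.771, and the other members lay between 0.0623 and 0.377.

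Within a library, the make-up of the family also differed under overexpression. S-Lap2 gave 8.89% of the S-Lap counts in the control and 9.99% under knockdown, but 48.5% under overexpression (41.5% to 55.6%). S-Lap7 gave 34.8% in the control, 18.6% under overexpression and 27.6% under knockdown. S-Lap1 went from 14.7% in the control to 4.41% under overexpression and 11.1% under knockdown. S-Lap5 took 1.08% in the control, 1.47% under overexpression and 1.43% under knockdown, the smallest share in each library.

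**Figure D3:**
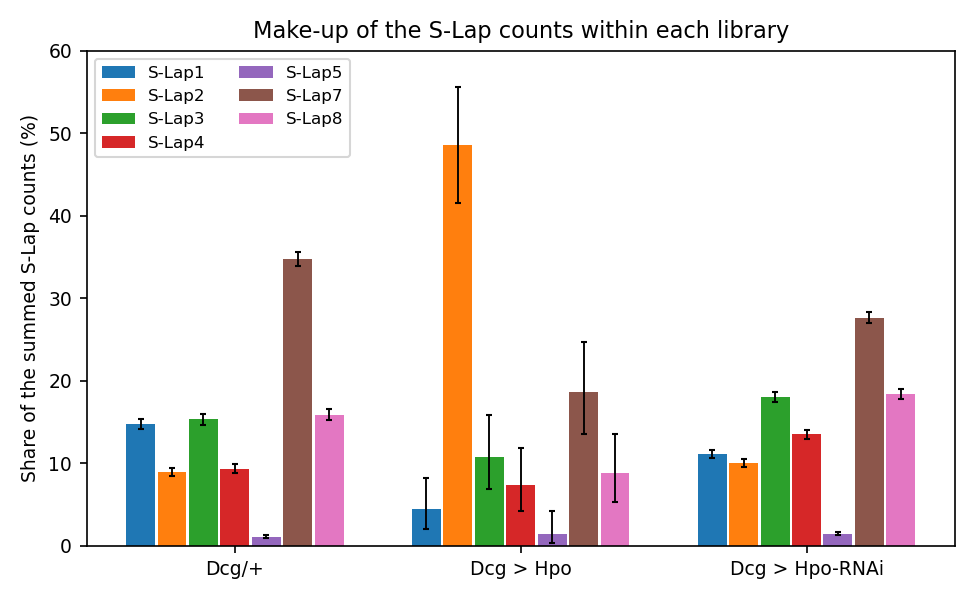
Share of the summed S-Lap counts (%) given by each member within each library, with exact 95% binomial intervals. S-Lap7 is the tallest bar in Dcg/+ (34.8%) and Dcg > Hpo-RNAi (27.6%), and S-Lap2 in Dcg > Hpo (48.5%).

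A pair of related genes outside the symbol rule gave a contrast. The gene loopin-1, whose synonyms in RefSeq include S-LAP 6, encodes another aminopeptidase of sperm mitochondria and lies 41709 bases from S-Lap8 on 2R. It had 1042 counts in the control, 13 under overexpression and 1089 under knockdown, with ratios of 0.0118 under overexpression (0.00625 to 0.0202) and 0.974 under knockdown (0.894 to 1.06). The gene grsm (granny smith) encodes a leucyl aminopeptidase that is not confined to the male germ line. It had 1849 counts in the control, 1082 under overexpression and 2023 under knockdown. At 0.552 (0.512 to 0.596) and 1.02 (0.957 to 1.09), it was not called in either comparison with the control. Its interval under overexpression still lay wholly below 1, and the ratio was close to the threshold of 0.5. Within each library, the S-Lap sum was 12.5, 15.7 and 14.7 times loopin-1 in the control, Dcg > Hpo and Dcg > Hpo-RNAi. The same sum was 7.03, 0.189 and 7.91 times grsm. Part of grsm overlaps CG14384 on the same strand, which had 28, 3 and 80 counts.

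**Figure D4:**
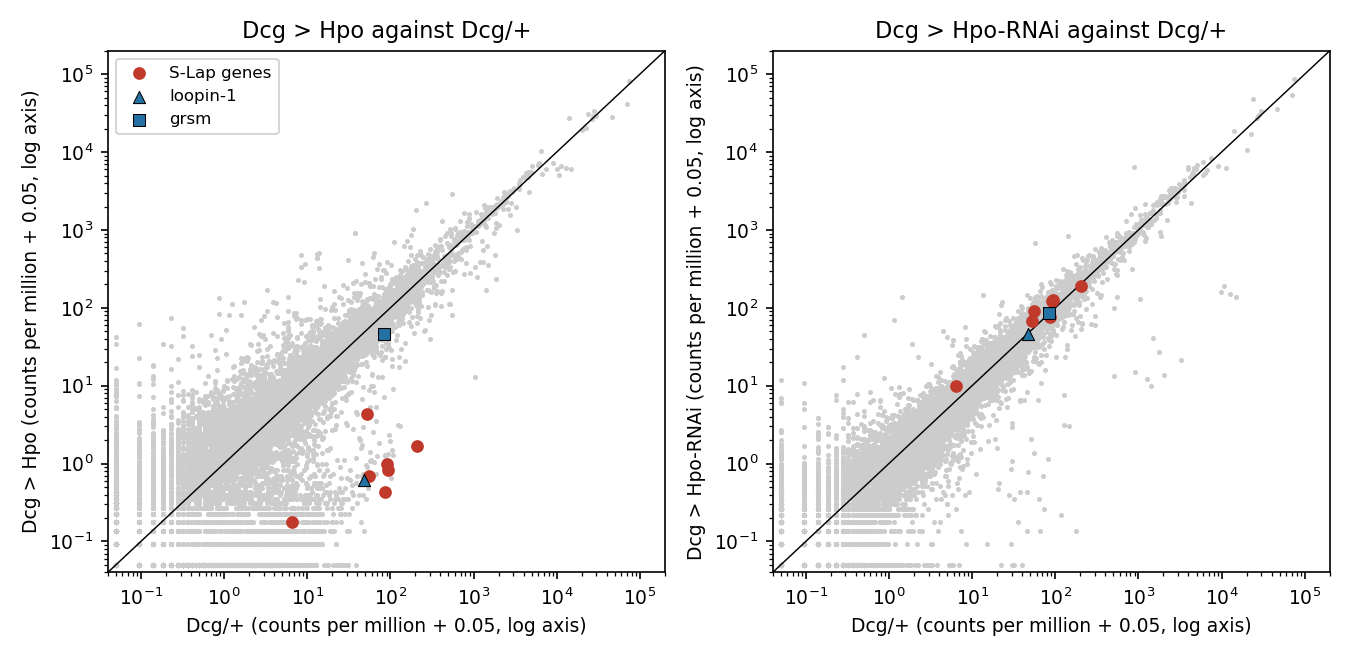
CPM plus 0.05 of all 16509 genes (grey) in Dcg > Hpo (left) and Dcg > Hpo-RNAi (right) against Dcg/+, on log axes, with the S-Lap genes in red, loopin-1 as a triangle and grsm as a square. The line marks equal levels. On the left the 7 S-Lap genes and loopin-1 lie far below the line, among other genes, and on the right they lie near it.

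The family was not alone, and its counts were low together with those of other genes of spermatocytes and spermatids. A list of such genes was set with earlier results of these data known, and 37 of them had a row. In Dcg > Hpo against Dcg/+, 35 of 37 were called lower and 0 were called higher, beside 22.8% lower and 18.2% higher over all genes measured. The median log2 ratio of the 37 genes was -5.40, beside 0.09 over all genes measured. Their summed counts were 16548 in the control, 1029 under overexpression and 20094 under knockdown. The most abundant, dj (don juan), which encodes a protein of the sperm tail, had 2858 counts in the control, 69 under overexpression and 3573 under knockdown. Mst77F, a chromatin protein of condensing spermatid nuclei, had 480 counts in the control, 1 under overexpression (ratio 0.00197, 4.97e-05 to 0.0110) and 560 under knockdown.

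Some of these genes had no read at all under overexpression. The list included 8 genes at 0 there, namely aly, can, sa and nht, which serve the transcription programme of spermatocytes, and c-cup, p-cup, d-cup and hale. The gene c-cup, with 199 counts in the control, was at least 70.3-fold lower when its 0 was replaced by a floor of 3 counts. The other 7 are named because they were at 0, after their values were seen. Mst98Ca, expressed in the male germ line, had 436 counts in the control, 2 under overexpression (ratio 0.00433, 0.000523 to 0.0157) and 536 under knockdown. The 2 genes not called lower were twe, the meiotic Cdc25 phosphatase, with 239 counts in the control, 166 under overexpression and 318 under knockdown, and sowah, with 66, 123 and 70, both named after their values were seen. Against the control, the knockdown library gave 2 higher and 2 lower calls among the 37 genes, beside 7.81% higher and 9.09% lower over all genes measured. The median log2 ratio of the 37 genes was 0.12 there, beside 0.08 over all genes measured.

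Genes tied to the mitochondria of spermatids, where S-Lap proteins end up, were mostly low as well. Of 20 measured genes, loopin-1 among them, 15 were called lower under overexpression and 0 were called higher. Over all genes measured, 22.8% were lower and 18.2% higher. The median log2 ratio of the list was -5.13, beside 0.09 over all genes measured. The list named 21 genes, but knon, written Knon there, was not matched. Its row bears the symbol CG7813. The counts of knon are given further below. Porin2, a germ line porin of the outer membrane, had 309 counts in the control, 3 under overexpression (ratio 0.00916, 0.00188 to 0.0270) and 313 under knockdown. Tim17b1, a subunit of the protein import machinery, had 246, 2 and 228 counts (ratio 0.00767, 0.000924 to 0.0280), and CG6255 had 158, 0 and 227 and was at least 55.8-fold lower. The 5 genes not called lower were nes, Pink1, park, Marf and CG10219, named after their values were seen. Their ratios lay between 0.605 for nes and 1.78 for Marf, and Marf, Pink1 and park serve mitochondria of many tissues. The list also holds Sdic1, a dynein chain of the sperm tail that is not mitochondrial, and shares dj, djl and fzo with the list above. Under knockdown 0 of 20 were called higher and 1 lower, beside 7.81% higher and 9.09% lower over all genes measured.

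Within each library the S-Lap sum can be set against these genes with no scaling between libraries. The S-Lap sum was 0.785 of the summed spermatocyte and spermatid list in the control (0.768 to 0.804), 0.198 under overexpression (0.170 to 0.231) and 0.797 under knockdown (0.780 to 0.813). The family was thus lower under overexpression even relative to that list as a whole, which still held 166 counts of twe there, and 266 of janB, also named after its values were seen. Against single abundant genes of late stages, chosen after their values were seen, the outcome differed from gene to gene. The S-Lap sum was 4.55 times dj in the control (4.37 to 4.74), 2.96 times under overexpression (2.24 to 3.94) and 4.48 times under knockdown (4.32 to 4.65), so it was lower relative to dj too. Against betaTub85D and the Mst84D genes, the intervals of the control and of overexpression overlapped. The S-Lap sum was 12.7 times betaTub85D, the tubulin of meiosis and the sperm tail, in the control (11.9 to 13.6), 12.75 times under overexpression (7.66 to 22.7) and 14.1 times under knockdown (13.3 to 15.0). Against the 4 tail protein genes Mst84Da to Mst84Dd it was 2.58 times in the control (2.50 to 2.67), 2.43 times under overexpression (1.87 to 3.17) and 2.75 times under knockdown (2.67 to 2.84). Without S-Lap2 these ratios under overexpression were 1.52 to dj (1.11 to 2.09), 6.56 to betaTub85D (3.86 to 11.9) and 1.25 to the Mst84D genes (0.929 to 1.69). In the control they were 4.14 (3.98 to 4.32), 11.6 (10.9 to 12.4) and 2.35 (2.28 to 2.43). Without S-Lap2 the intervals thus still overlapped for betaTub85D, and no longer did for the Mst84D genes.

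Markers of the other cells that such a dissection could hold were counted beside the family. The male-specific RNA roX1, which coats the X chromosome of males, had 7467 counts in the control, 2514 under overexpression and 3266 under knockdown. Of the 3 genes of male dosage compensation, 2 were called lower and 1 higher under overexpression, and 2 were called lower under knockdown. The second RNA, roX2, had 28, 8 and 13 counts, and msl-2, a protein gene of the same complex, had 16, 36 and 19 and was the one called higher. The 8 rows of Y chromosome fertility genes, which spermatocytes transcribe, summed to 59 counts in the control, 1 under overexpression and 114 under knockdown. Under overexpression 7 of these 8 were at 0, and 3 of 8, kl-3, Ory and Pp1-Y1, were at 0 in the control too. In Dcg > Hpo against Dcg/+ the Y genes kl-5, ARY and Pp1-Y2 were measured, and all 3 were called lower. In Dcg > Hpo-RNAi against Dcg/+, 3 of 5 measured Y genes were called higher. Over all genes measured, 22.8% were lower and 18.2% higher under overexpression, and 9.09% lower and 7.81% higher under knockdown.

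The lists of earlier germ cells and of the gonad soma were mixed. Of 8 measured early germ line genes 3 were called lower and 0 higher under overexpression, beside 22.8% lower and 18.2% higher over all genes measured, and the summed counts of the list were 625 in the control, 703 under overexpression and 471 under knockdown. That sum rests mostly on piwi, which silences transposons and had 219, 341 and 224 counts, and on bam, a switch from dividing to differentiating germ cells named after its values were seen, which had 140, 258 and 27. Its largest difference was in bgcn, a partner of bam, with 65, 4 and 75 counts, a ratio of 0.0581 under overexpression (0.0154 to 0.156). The helicase gene vas, which defines germ cells, had 63, 7 and 50. Of 3 measured genes of the gonad soma 2 were called lower under overexpression, with summed counts of 184, 80 and 80, and Sox100B was at 0 in every library.

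Markers of muscle, gut and neurons were mostly called higher under overexpression, not lower. All 6 muscle genes were called higher, with sums of 4257 counts in the control, 31715 under overexpression and 3032 under knockdown, and so were 5 of 5 measured gut genes, with sums of 552, 24571 and 2009. Of 5 neuronal genes 4 were called higher, with sums of 4659, 5025 and 4369, and Syt1, the most abundant, was not among them. Salivary gland glue genes summed to 841656 counts in the control, 408318 under overexpression and 11263 under knockdown. Of these 4 genes, 3 were called lower under overexpression and 4 under knockdown. Under knockdown, 4 of 6 muscle genes were called lower and 4 of 5 gut genes higher. Of 9 fat body genes 1 was called higher and 0 lower under overexpression. Over all genes measured, 18.2% were called higher and 22.8% lower under overexpression, and 7.81% higher and 9.09% lower under knockdown. In bulk tissue, fewer cells of a type and less RNA per cell cannot be told apart, and the part of differing tissue or sex content of the samples in the S-Lap result was not tested.

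**Figure D5:**
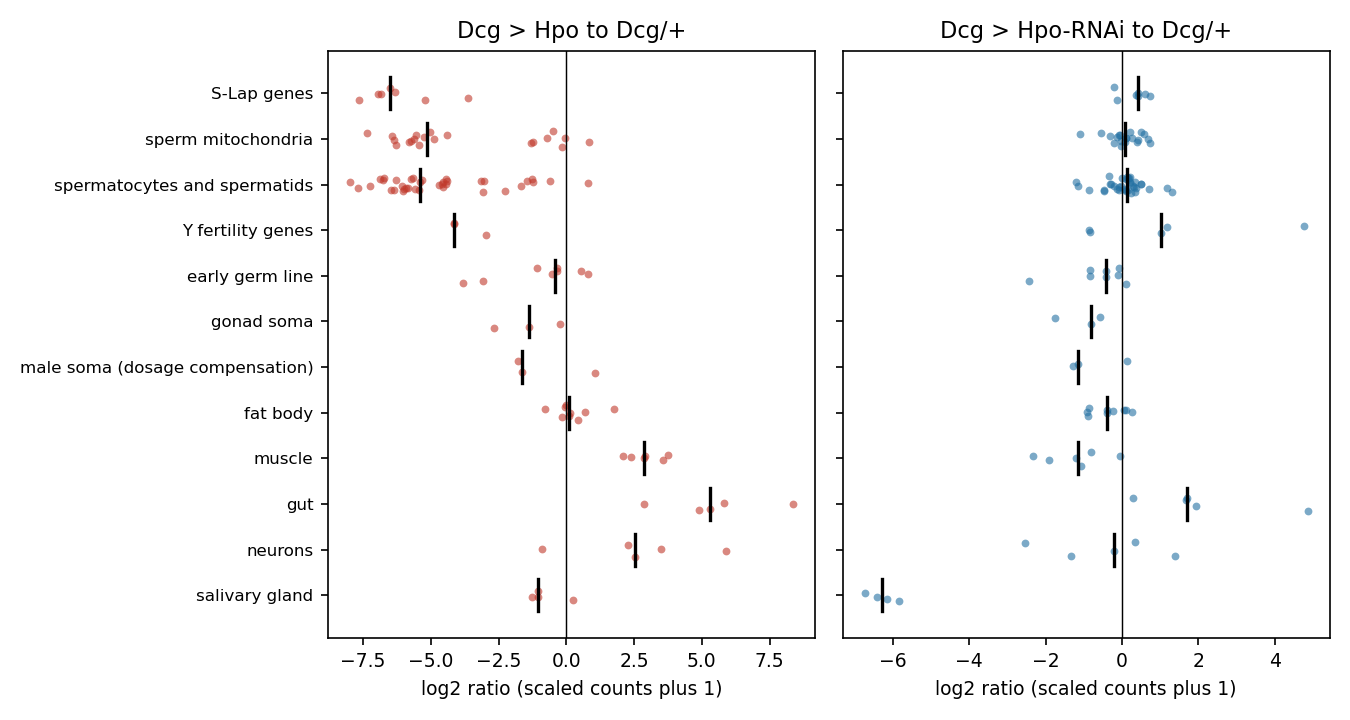
Log2 ratios of Dcg > Hpo (left) and Dcg > Hpo-RNAi (right) to Dcg/+, from counts scaled to a common total plus 1, for the S-Lap genes and for the measured genes of each marker list. Each point is 1 gene and each black bar the median of its row. The S-Lap median is -6.52 on the left and 0.41 on the right, and that of the spermatocyte and spermatid list -5.40 and 0.12.

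The nearest genes on both sides of the S-Lap loci had mixed ratios. Among the 11 neighbouring genes outside the family, 5 were called lower under overexpression, 1 was called higher, 3 were not called and 2 had too few counts, beside 22.8% lower and 18.2% higher over all genes measured. CG6282, 160 bases before S-Lap1, had 5 counts in the control, 26 under overexpression and 5 under knockdown. The splicing factor gene fand, 119 bases before S-Lap5, had 88, 154 and 174, and CG33459, 1917 bases before S-Lap8, had 1190, 1137 and 806. The genes called lower were GAPsec, CG32061 (71 counts in the control, 0 under overexpression and 72 under knockdown), CG43058 (71, 0 and 81), CG6527 (273, 12 and 416) and CG7813.

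The last of these, 3655 bases after S-Lap8, is knon (knotted onions), which encodes a subunit of a testis form of the mitochondrial ATP synthase. It had 218 counts in the control, 0 under overexpression and 311 under knockdown, and was at least 77.0-fold lower in Dcg > Hpo than in the control. Its ratio under knockdown was 1.33 (1.11 to 1.59), the same to 3 digits as that of S-Lap8.

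Among 7636 genes outside the family with at least 100 counts in their highest library, the 8 whose profile over the 3 libraries lay nearest to that of the S-Lap sum were CG8701, CG42758, RpS10a, orb, Arp53D, CG7311, CG9129 and CG9920. The measure was the Euclidean distance between centred log2 counts. Over 3 libraries many genes can share a profile, so the list describes likeness only. CG8701, the nearest at a distance of 0.0321, had 844 counts in the control, 12 under overexpression and 1009 under knockdown. The gene orb, which encodes an RNA-binding protein of the germ line, had 1062, 15 and 1281, and Arp53D, an actin-related protein of the testis, had 375, 5 and 444. RpS10a, a copy of a ribosomal protein gene, had 304, 4 and 388. None of the 8 was in the lists above. They lay on chromosome arms 2L, 2R, 3L and 3R. Of the members, S-Lap3 was nearest to the S-Lap sum at a distance of 0.489 and S-Lap2 farthest at 1.94. The 8 genes were picked for their small distance and the members were not, so their distances cannot be compared.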

How the data were processed

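The authors deposited whole read counts for each gene, not normalized, obtained through a service company (ebiogen) from libraries made with the QuantSeq 3′ kit, on genome build dm6 per the labels. The aligner, the counting tool, its use of strand and its treatment of reads with several matches are not given in the sources used here. Each of the 3 genotypes is 1 library, so no test between genotypes was made. Ratios of library shares were given with the exact Clopper-Pearson 95% interval derived from how the counts divide between both libraries, and counts with exact Poisson intervals (scipy 1.17.1). Reads are not independent molecules, so these intervals cover counting error alone. Log2 ratios used counts scaled to a common total plus a pseudocount of 1, and a count of 0 was replaced by 3 counts for a fold value. Such a fold is not the limit of the 95% interval. Called genes needed 2-fold, an interval without 1 and 10 counts in either library. The members and gene lists were chosen with earlier results of these data known. Named genes were all members, loopin-1 and grsm, the nearest gene on each side of each member, the 3 largest log2 ratios and the most abundant gene of a list, the 8 most alike profiles and hpo. Exceptions are marked in the text, and not every gene the rule takes is printed for lists of other tissues. Relatives were to be found by protein similarity, but that comparison was not made here. Rows were matched by symbol to Ensembl release 115, whose coordinates are those of dm6 and are the same in RefSeq for all members. In RefSeq, 16280 of 16509 symbols were matched. Alternatives were scaling by TMM in edgeR 4.0.16, by the median of ratios in DESeq2 1.42.0 and by quantiles in limma 3.58.1, other filters, thresholds and pseudocounts, and sums without S-Lap7, without S-Lap2 or with loopin-1, of which those on S-Lap2 and loopin-1 were chosen after seeing the data. The calling of genes was tested on simulated data.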

Additional observations from a re-analysis of the deposited data

How the results depend on the processing

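With 1 library per genotype, no replicate could be left out. No paired analysis was possible because each genotype has 1 library. Every S-Lap gene kept its side of 1 in every comparison under TMM, median-of-ratios and quantile scaling, and 7 of 7 were called lower in Dcg > Hpo under each alternative run. TMM scaling lowered all log2 ratios of Dcg > Hpo to Dcg/+ by a shift of -0.18, which set the median of all genes to -0.08, and median-of-ratios scaling shifted them by -0.13. The ratio of grsm in this comparison, 0.552 by library totals, falls below 0.5 with the TMM shift, so its call depends on the scaling. The summed S-Lap ratio of Dcg > Hpo to Dcg/+ was 0.0176 after quantile normalization, 0.0185 without S-Lap7 and 0.00837 without S-Lap2. That of Dcg > Hpo-RNAi to Dcg/+ was 1.08 with TMM, 1.09 with median-of-ratios, 1.09 with quantile normalization and 1.27 without S-Lap7. That of Dcg > Hpo-RNAi to Dcg > Hpo was 61.9 after quantile normalization and 135.5 without S-Lap2. At a 1.5-fold threshold 2 of 7 members were called in Dcg > Hpo-RNAi against Dcg/+, where 3546 of 11521 genes were. The members' count is thus near the share over all genes, and nothing is read from it. Over all genes, 1714 were called lower in Dcg > Hpo than in Dcg/+ with at least 50 counts, against 2702. In Dcg > Hpo-RNAi against Dcg/+ 978 genes were called with at least 50 counts, 3546 at 1.5-fold and 1098 at 3-fold. Fewer genes are measured under the stricter filter, and a wider or narrower threshold takes in more or fewer of them. Of 63 single-member ratios under the scaling alternatives, 56 stayed within the counting interval of the reported ratio, 7 moved outside it and 0 reversed, and all 7 belong to Dcg > Hpo-RNAi against Dcg/+. In Dcg > Hpo the members rest on 3 to 99 reads each.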
